A study of Homo sapiens with 3 samples.

Results

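The genes described here are 10 human C-type lectin domain family genes of myeloid cells: CLEC2B, CLEC2D, CLEC4A, CLEC4D, CLEC4E, CLEC5A, CLEC7A, CLEC10A, CLEC11A and CLEC12A. They were taken as all probe sets whose platform symbol was exactly one of these names, which gave 26 of the 54675 probe sets and 10 of 19775 genes. This set was not filtered by signal, but the 10 names were chosen with earlier results of these data known. Calls and ranks of a gene use its brightest probe set. They were measured in THP-1, an established human monocytic leukemia cell line, on 1 biotin-labelled oligonucleotide array per condition. The 3 conditions were undifferentiated, PMA 3 days and PMA 8 days, where PMA is phorbol myristate acetate, an activator of protein kinase C that turns these cells into adherent macrophage-like cells. By the protocols in the labels the PMA concentration was 200 nM. The culture called PMA 3 days spent 24 h in the drug followed by 3 drug-free days, and the one called PMA 8 days spent 72 h in it followed by 5 drug-free days. Cells were grown in 10% serum, and the protocol, which has the same wording for all 3 samples, ends with a change to 2% serum 16 h before RNA was taken. There were no replicates, so no test between conditions was possible, every value is from 1 culture of 1 cell line, and time in PMA, time since PMA and time in culture cannot be told apart. In bulk RNA, fewer cells expressing a gene and less RNA per cell cannot be told apart either.

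C-type lectin receptors bind sugars, lipids or other proteins through a shared fold, and most of the genes above encode membrane proteins of myeloid cells. Activating receptors signal through the kinase SYK, either by a tyrosine motif in their own tail or through the adaptors FCER1G and TYROBP, and inhibitory ones carry a tail motif that recruits the phosphatases PTPN6 and PTPN11. The label of myeloid receptors covers the list only in part: CLEC11A encodes a secreted growth factor, and CLEC2B and CLEC2D encode ligands that natural killer cells recognise.

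Between the undifferentiated and the PMA 3 days culture, CLEC4A, CLEC7A and CLEC4E were higher and CLEC12A was lower. At PMA 8 days the first 3 had less signal than at PMA 3 days, and CLEC4A alone of them was still over 2-fold above undifferentiated cells. CLEC12A was under the measuring floor on both PMA arrays. CLEC2B took the opposite course, with its lowest signal at PMA 3 days and its highest at PMA 8 days. CLEC5A, CLEC2D and the brightest probe set of CLEC11A stayed within 2-fold in every comparison, CLEC10A was near or under the floor, and CLEC4D was under it on all 3 arrays.

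Signals below a floor of 150.2 units, the median over all probe sets and arrays, were raised to the floor before ratios were taken. A gene entered a comparison if its brightest probe set was above the floor on 1 of the 2 arrays, and it was called higher or lower at 2-fold, a log2 ratio of at least 1 in size. If 1 array was at the floor, the change could only be bounded from below, and "at least" is written. Each array had a mean signal of 1000 after 2% was trimmed at either end, and 48.5% to 51.4% of probe sets lay above the floor. The poly-A control transcripts, which are spiked in before labelling, were brighter on the PMA 3 days array: their median log2 ratio to the undifferentiated array was 0.31 at PMA 3 days and 0.02 at PMA 8 days, and it was -0.29 for PMA 8 days over PMA 3 days. The only error that could be measured was the disagreement between the 2 brightest probe sets of a gene, over the 5157 genes with both above the floor on all arrays. The SD of a log2 ratio from 1 probe set, estimated from the median absolute deviation of these differences and therefore little moved by the most discordant genes, was 0.30, 0.30 and 0.19 for the 3 comparisons in that order, and 0.41, 0.44 and 0.32 for the 978 genes with a mean signal under 1000. The paired probe sets were 2-fold or more apart in 8.01%, 8.38% and 1.43% of genes. This error holds no difference between cultures or labelling reactions.

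**Figure D1:**
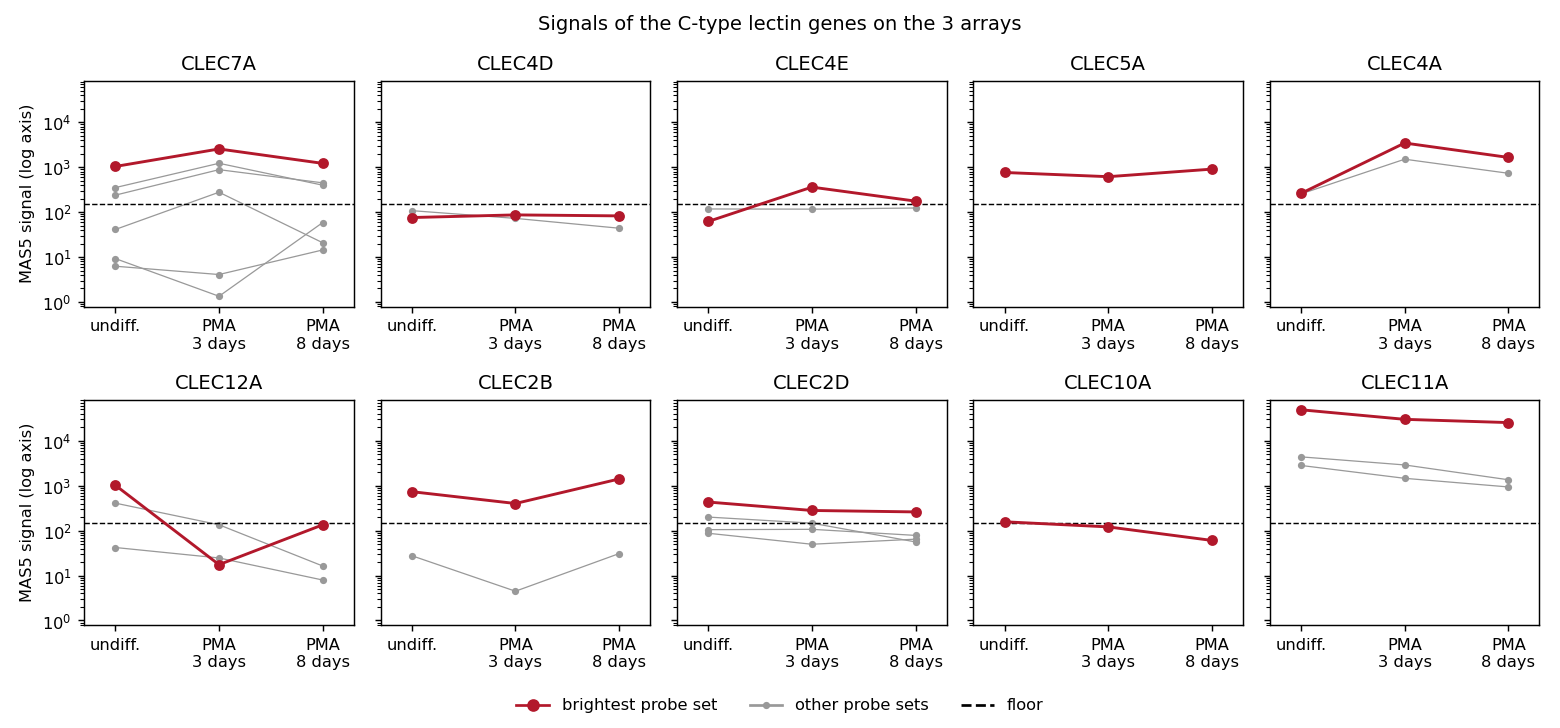
MAS5 signal (log axis) of every probe set of the 10 genes in undifferentiated, PMA 3 days and PMA 8 days cells, 1 array each; red is the brightest probe set of the gene by its mean, grey are its other probe sets, and the dashed line is the floor of 150.2. CLEC7A, CLEC4E and CLEC4A have their highest brightest-probe-set signal at PMA 3 days, CLEC12A is under the floor on both PMA arrays and CLEC2B is lowest at PMA 3 days.

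Upstream sequence was at hand for 5 of the 10 genes, and 3 are shown because they belong to genes of different behaviour: CLEC4E, higher at PMA 3 days, CLEC12A, lower at both times, and CLEC5A, within 2-fold throughout. Each is the 250 bases before the RefSeq gene start in GRCh38.p14, 5′ to 3′ on the gene's strand: chr12:8540906-8541155 (minus) for CLEC4E, chr12:9971159-9971408 (plus) for CLEC12A and chr7:141946975-141947224 (minus) for CLEC5A. Capitals mark GAGGAA, the core bound by PU.1 (SPI1) and other ETS factors of myeloid cells, and TTCCTC, the same core on the other strand.
CLEC4E: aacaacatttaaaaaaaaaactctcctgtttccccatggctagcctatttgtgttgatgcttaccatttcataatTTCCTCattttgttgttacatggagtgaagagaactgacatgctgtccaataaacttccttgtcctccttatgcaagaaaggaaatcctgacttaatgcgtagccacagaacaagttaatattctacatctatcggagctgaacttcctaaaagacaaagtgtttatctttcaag
CLEC12A: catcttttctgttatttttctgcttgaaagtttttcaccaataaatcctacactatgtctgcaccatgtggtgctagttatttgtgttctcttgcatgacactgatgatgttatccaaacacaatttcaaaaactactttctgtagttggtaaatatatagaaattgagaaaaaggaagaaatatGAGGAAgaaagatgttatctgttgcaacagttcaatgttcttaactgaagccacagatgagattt
CLEC5A: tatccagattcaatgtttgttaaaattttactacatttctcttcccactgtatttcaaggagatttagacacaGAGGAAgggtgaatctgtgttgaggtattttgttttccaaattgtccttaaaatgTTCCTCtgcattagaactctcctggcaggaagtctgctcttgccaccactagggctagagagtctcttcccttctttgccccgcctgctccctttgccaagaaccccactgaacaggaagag

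The core occurred once before CLEC4E, 170 to 175 bases upstream on the opposite strand, and once before CLEC12A, 60 to 65 bases upstream. It occurred at 2 places before CLEC5A, 172 to 177 and 117 to 122 bases upstream. The core is common: on either strand it occurs in 23.4% of the 27305 promoter windows of the same length. A match to TTGCNNAA, an element bound by C/EBP factors, was found 100 to 107 bases before CLEC4E (9.13% of windows), and one to TGTGGT, the RUNX core, 179 to 184 bases before CLEC12A (10.9% of windows). TGANTCA (AP-1, a factor family that PMA induces, 6.60% of windows) and CACGTG (an E-box, 6.49%) were in none of these 3 windows. Both strands were searched, and no overlap between motifs was found in the 3 windows. Of the windows not shown, that of CLEC2D held the PU.1 core 141 to 146 bases upstream on the opposite strand. It also held TGANTCA 39 to 45 bases and TGTGGT 8 to 13 bases upstream. The window of CLEC11A held none of the 5 motifs. The matches are a description of letters, and any link between them and the signals was not tested.

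Among the activating receptors, CLEC7A and CLEC4E were higher at PMA 3 days. CLEC7A, known as Dectin-1, is the receptor for fungal beta-glucans and signals through its own tail. Its brightest probe set, 221698_s_at, gave 1040 signal units in undifferentiated, 2554 in PMA 3 days and 1219 in PMA 8 days cells. PMA 3 days cells were thus the highest, and the other cultures lay close together. The PMA 3 days signal was 2.46-fold the undifferentiated one (log2 ratio 1.30), and the PMA 8 days signal was 1.17-fold the undifferentiated one and 2.10-fold lower than at PMA 3 days (log2 ratio -1.07). Under scaling to the poly-A controls the first ratio was 0.98 and the last -0.77, so that neither passed 2-fold.

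CLEC7A had 6 probe sets, the most of the 10 genes, and 3 of them were above the floor on every array. Probe set 1555756_a_at gave 352 units in undifferentiated, 1225 in PMA 3 days and 399 in PMA 8 days cells, a 3.48-fold higher signal at PMA 3 days and a 3.07-fold lower one at PMA 8 days than at PMA 3 days. Probe set 1554406_a_at gave 239, 883 and 449 units in the same order, 3.70-fold higher at PMA 3 days over undifferentiated and 1.97-fold lower at PMA 8 days than at PMA 3 days. Probe set 1555214_a_at was above the floor at PMA 3 days only, with 278 units. All 4 had their highest signal at PMA 3 days. The log2 ratio of PMA 8 days over undifferentiated ranged from 0.18 (1555756_a_at) to 0.91 (1554406_a_at) over the 3 that gave one. The remaining pair, 241098_at and 1555213_a_at, stayed under the floor.

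CLEC4E, known as Mincle, pairs with FCER1G and recognises mycobacterial glycolipids and products of damaged cells. Its probe set 222934_s_at gave 61.9 units in undifferentiated cells, under the floor, 361 in PMA 3 days and 176 in PMA 8 days cells. It was at least 2.40-fold higher at PMA 3 days and at least 1.17-fold higher at PMA 8 days than in undifferentiated cells, and 2.05-fold lower at PMA 8 days than at PMA 3 days. With a floor at the 60th percentile of all values the first ratio was short of 2-fold (log2 ratio 0.46). The last was short of it with that floor (-0.46), with the pseudocount of 50 in place of a floor (-0.86) and with poly-A control scaling (-0.74). Its second probe set, 219859_at, gave 118, 117 and 124 units, all under the floor, so that the change of CLEC4E rests on 1 probe set.

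CLEC4D, which forms a pair with CLEC4E on the cell surface, was not measured above the floor. Its brighter probe set 1552772_at gave 75.8, 86.8 and 82.6 units in undifferentiated, PMA 3 days and PMA 8 days cells, and 1552773_at gave 108, 72.6 and 43.9. CLEC5A, known as MDL-1, signals through TYROBP. It gave 764 units in undifferentiated, 616 in PMA 3 days and 908 in PMA 8 days cells, on its single probe set 219890_at. Its log2 ratios of -0.31 and 0.25 to undifferentiated cells were smaller than the SD of 0.41 and 0.44 between probe sets of dim genes, and that of PMA 8 days over PMA 3 days was 0.56, within 2-fold.

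The inhibitory receptors went opposite ways. CLEC4A, known as DCIR, is an inhibitory receptor of monocytes, macrophages and dendritic cells. Its probe set 219947_at gave 261 units in undifferentiated, 3463 in PMA 3 days and 1655 in PMA 8 days cells. Both PMA cultures were well above the undifferentiated one, by 13.3-fold at PMA 3 days and 6.33-fold at PMA 8 days, and PMA 8 days was 2.09-fold lower than PMA 3 days. The probe set 221724_s_at gave 254, 1510 and 734 units in the same order, 5.93-fold and 2.88-fold above undifferentiated cells and 2.06-fold lower at PMA 8 days than at PMA 3 days. The probe sets thus gave nearly the same difference between the PMA cultures and differed by over 2-fold in the size of the difference from undifferentiated cells. Under poly-A control scaling the log2 ratio of PMA 8 days over PMA 3 days was -0.77, short of 2-fold. At PMA 3 days over undifferentiated, CLEC4A stood at rank 99 from the top of 13292 genes, bounds included.

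CLEC12A, known as MICL or CLL-1, is an inhibitory receptor of monocytes and granulocytes that is also found on myeloid leukemia cells. Its probe set 1552398_a_at gave 1025 units in undifferentiated cells, against 17.5 in PMA 3 days and 135 in PMA 8 days cells, both under the floor. The probe set 1569401_at gave 410 units in undifferentiated cells, 135 in PMA 3 days and 16.3 in PMA 8 days cells. Both probe sets were above the floor in undifferentiated cells only, so CLEC12A was at least 6.82-fold lower at either PMA time by the first and at least 2.73-fold lower by the second. Below the floor the probe sets give the PMA times in opposite orders, and no order of the PMA cultures is drawn from them. CLEC12A stood at rank 96 from the bottom of 13292 genes at PMA 3 days and at rank 93 of 13545 at PMA 8 days. The third probe set, 243106_at, was under the floor on all arrays.

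Of the genes for ligands of natural killer cell receptors, CLEC2B differed by over 2-fold between the PMA cultures and CLEC2D did not. CLEC2B, known as AICL, is the ligand of the receptor KLRF1. Its probe set 209732_at gave 738 units in undifferentiated, 402 in PMA 3 days and 1416 in PMA 8 days cells. The PMA 3 days signal was 1.84-fold lower and the PMA 8 days signal 1.92-fold higher than the undifferentiated one, both short of 2-fold. PMA 8 days was 3.52-fold higher than PMA 3 days (log2 ratio 1.82), rank 5 from the top of 13044 genes. Quantile normalization and median centring each put PMA 8 days over undifferentiated past 2-fold, and poly-A control scaling put the lower signal at PMA 3 days past it (log2 ratio -1.19). The second probe set, 1556209_at, was under the floor on every array, so these values too rest on 1 probe set.

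CLEC2D, known as LLT1, is the ligand of KLRB1. Its probe set 235522_at gave 433 units in undifferentiated, 281 in PMA 3 days and 261 in PMA 8 days cells. The PMA cultures were close to each other and 1.54-fold and 1.66-fold lower than undifferentiated cells, short of 2-fold. The probe set 220132_s_at, with 201 units in undifferentiated cells, was under the floor in both PMA cultures, and the other 2 were under it throughout. The receptors themselves belong to natural killer and T cells: KLRB1 gave at most 13.7 units on any array, while KLRF1 gave 535 in undifferentiated, 240 in PMA 3 days and 290 in PMA 8 days cells on its single probe set, 2.23-fold lower at PMA 3 days than in undifferentiated cells.

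CLEC10A, the macrophage receptor for galactose-type sugars, gave 157 units in undifferentiated, 121 in PMA 3 days and 60.6 in PMA 8 days cells. It was above the floor in undifferentiated cells only, and by so little that no fold can be given. CLEC11A, a secreted growth factor for blood progenitors, was above the floor on all 3 arrays by each of its 3 probe sets. Probe set 211709_s_at gave 49141 units in undifferentiated, 30112 in PMA 3 days and 25493 in PMA 8 days cells, 1.63-fold and 1.93-fold lower in the PMA cultures. Probe set 205131_x_at gave 4396, 2905 and 1359 units and 210783_x_at gave 2831, 1463 and 940. All 3 had their lowest signal at PMA 8 days, but PMA 8 days was 3.23-fold and 3.01-fold lower than undifferentiated cells by 205131_x_at and 210783_x_at and within 2-fold by 211709_s_at. The suffix x marks probe sets that may also bind other transcripts. CLEC11A was therefore called lower at PMA 8 days over undifferentiated cells by its second-brightest probe set and by the median of its probe sets, and not by its brightest. At PMA 8 days over PMA 3 days, 205131_x_at was 2.14-fold lower, and 211709_s_at and 210783_x_at were within 2-fold.

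**Figure D2:**
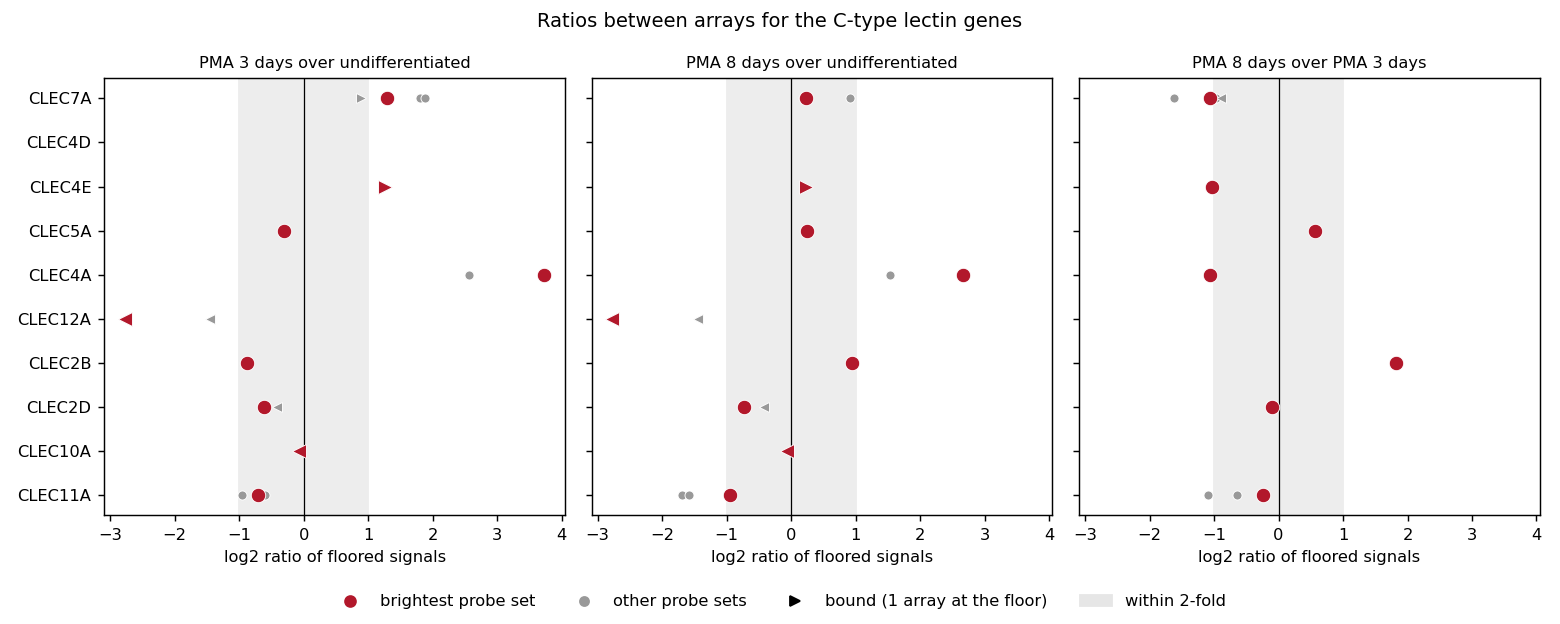
Log2 ratio of floored signals for each of the 10 genes in the 3 comparisons, 1 array per condition; red is the brightest probe set, grey are the others, triangles are bounds with 1 array at the floor and point away from 0, and the shaded band is within 2-fold. CLEC4A and CLEC12A lie outside the band at both PMA times over undifferentiated, and CLEC7A, CLEC4E and CLEC4A lie just outside it in PMA 8 days over PMA 3 days with CLEC2B at 1.82 on the other side.

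By comparison, 9 of the 10 genes entered at PMA 3 days over undifferentiated, of which 3 were higher and 1 lower. Of all 13292 genes 10.4% were higher and 10.7% lower, and the 9 had a median log2 ratio of -0.31 beside -0.12 over all genes. Relative to undifferentiated cells at PMA 8 days, 1 of 9 was higher and 1 lower, beside 9.84% and 8.5% of 13545 genes, and the medians were 0.23 and -0.07. Between the PMA cultures, 7 entered at PMA 8 days over PMA 3 days, 1 was higher and 3 were lower, beside 1.37% and 0.958% of 13044 genes, with medians of -0.24 and 0.04. The counts at PMA 8 days over undifferentiated are near those over all genes. Because the 10 genes were chosen with earlier results of these data known, all of these counts are descriptions only. All 3 comparisons share arrays in pairs, so that a high signal on the PMA 3 days array alone enters both as higher over undifferentiated and as lower at PMA 8 days over PMA 3 days. On poly-A control scaling the median of all genes moved to -0.39 for PMA 3 days over undifferentiated cells and 0.31 for PMA 8 days over PMA 3 days. The number of the 10 genes lower at PMA 8 days over PMA 3 days was then 0. Higher genes made up 49.2% of all calls at PMA 3 days over undifferentiated, 28.5% with poly-A control scaling and 59.3% with centring, and 58.9% and, with poly-A control scaling, 92.4% at PMA 8 days over PMA 3 days.

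Genes through which these receptors signal were followed from a list of 34, of which 31 were on the array and all 31 entered. At PMA 3 days over undifferentiated 5 were higher and 4 lower (median log2 ratio -0.06), beside 10.4% and 10.7% of all genes. At PMA 8 days 4 were higher and 3 lower (-0.10), beside 9.84% and 8.5% of all genes. Between the PMA cultures 0 passed 2-fold in either direction. The adaptor TYROBP, used by CLEC5A, gave 25963 units in undifferentiated, 57252 in PMA 3 days and 47849 in PMA 8 days cells, 2.21-fold higher at PMA 3 days. FCER1G, the adaptor of CLEC4E, gave 36429, 47166 and 42890 units in the same order and stayed within 2-fold. The kinase SYK had log2 ratios to undifferentiated of -0.43 at PMA 3 days and -0.55 at PMA 8 days by its brightest probe set. Its other probe sets gave -0.91 and -1.03, -0.74 and -1.15, and -0.84 and -1.55 in the same order. By each of these SYK was over 2-fold lower at PMA 8 days and within 2-fold at PMA 3 days. Whether SYK was called lower at PMA 8 days thus depended on the probe set. MALT1, a scaffold protease downstream of SYK, was 3.73-fold higher at PMA 3 days and 2.95-fold higher at PMA 8 days, and MAP3K14, the kinase of the noncanonical NF-kB pathway, 3.46-fold and 3.97-fold. PIK3CD, a lipid kinase of leukocytes, was 13.0-fold and 9.40-fold lower, and NFATC2, a calcium-dependent transcription factor, 3.92-fold and 2.46-fold lower. IRF5, a factor that induces inflammatory cytokines, was 3.19-fold lower at PMA 3 days and 3.68-fold at PMA 8 days. PTPN6, the phosphatase recruited by inhibitory receptors, gave 1233 units in undifferentiated, 792 in PMA 3 days and 790 in PMA 8 days cells, and PTPN11 gave 16614, 15234 and 15873. Neither passed 2-fold. CARD9, another link of the pathway, was not analysed here.

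Of 16 cytokine and response genes that lectin receptors can induce, 13 were on the array and 9 entered. At PMA 3 days over undifferentiated 4 were higher and 0 lower (median 0.59): the neutrophil chemokines CXCL2 (11.5-fold) and CXCL8 (6.53-fold), the anti-inflammatory cytokine IL10 (at least 3.27-fold) and IL1B (2.22-fold). The same comparison for PMA 8 days gave 4 higher and 1 lower (median 0.36), with CXCL8 at 4.46-fold, CXCL2 at 4.14-fold and IL1B at 3.45-fold higher and IL23A 2.47-fold lower. Between the PMA cultures CXCL2 was 2.77-fold lower and CCL2 at least 2.19-fold higher at PMA 8 days. Many receptors induce these genes, and what drove them was not tested. The shares higher and lower over all genes were 10.4% and 10.7% at PMA 3 days and 9.84% and 8.5% at PMA 8 days.

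Among 47 other genes with a C-type lectin domain, 37 were on the array and 18 of these were under the floor on all 3 arrays. At PMA 3 days over undifferentiated 16 entered, with 3 higher and 3 lower (median -0.19), beside 10.4% and 10.7% of all genes. CD72, an inhibitory receptor, gave 710 units in PMA 3 days and 152 in undifferentiated cells, 4.69-fold higher, and the mannose receptor MRC1 544 and 35.4, at least 3.62-fold higher. COLEC12, a scavenger receptor with a lectin domain, was 3.29-fold higher. Besides KLRF1, the lower ones were ASGR2, a subunit of the asialoglycoprotein receptor (2.14-fold), and CLEC12B (at least 2.22-fold). In PMA 8 days cells 19 entered, with 3 higher (MRC1, CD72 and the thrombin cofactor THBD at 2.16-fold) and 2 lower (ASGR2 and CLEC12B). The shares over all genes were then 9.84% and 8.5%. Between the PMA cultures 0 of 18 passed 2-fold, beside 4 of the 7 entering among the 10 genes described here. Over all genes 1.37% were higher and 0.958% lower. Of the 4, CLEC7A (log2 ratio -1.07), CLEC4E (-1.04) and CLEC4A (-1.07) were just past 2-fold, and within it under poly-A control scaling. Of the 18, CD72 (-0.89) and COLEC12 (-0.74) came closest to it. The difference in counts was not tested, and the members and the list were chosen with earlier results of these data known.

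Markers of cell identity were set beside these values. For their counts, the shares higher and lower over all genes were 10.4% and 10.7% at PMA 3 days and 9.84% and 8.5% at PMA 8 days. Of 10 monocyte and macrophage genes 8 were on the array; 5 were higher and 1 lower at PMA 3 days over undifferentiated (median 1.89), and 5 higher and 2 lower at PMA 8 days (1.87). Their summed signal was 84239 in undifferentiated, 125522 in PMA 3 days and 90521 in PMA 8 days cells. Most of the first sum was LYZ, with 62439 units in undifferentiated, 36591 in PMA 3 days and 23242.5 in PMA 8 days cells. Without LYZ the sums were 21800, 88932 and 67279 in the same order. LYZ was 2.69-fold lower at PMA 8 days than in undifferentiated cells and within 2-fold at PMA 3 days. At PMA 8 days over PMA 3 days the median of the 8 genes was -0.44 with 0 past 2-fold. The scavenger receptor CD163 was 122-fold and 70.8-fold higher than in undifferentiated cells at PMA 3 days and PMA 8 days. In the same order CD14, the co-receptor for bacterial lipopolysaccharide, was 40.2-fold and 26.4-fold higher, and MSR1, which takes up modified lipoproteins, at least 26.3-fold and at least 17.2-fold. CSF1R, the receptor of the macrophage growth factor, was 5.59-fold higher at PMA 3 days and 4.63-fold at PMA 8 days, while CEBPA, a factor of the granulocyte and monocyte lineage, was 6.51-fold and 3.62-fold lower. SPI1, whose core motif was searched above, gave 25.0 units in undifferentiated, 162 in PMA 3 days and 175 in PMA 8 days cells on 1 probe set that hardly passed the floor. Dendritic cells also express CLEC4A and CLEC10A. Of 10 dendritic markers on the array 7 entered at PMA 3 days, 4 of them higher, all CD1 genes, and 1 lower, the progenitor receptor FLT3 (at least 9.84-fold). CD1E was 7.19-fold higher at PMA 3 days and CD1A 4.24-fold, and at PMA 8 days 5.56-fold and 3.95-fold. CD1C gave 750 units in undifferentiated, 2510 in PMA 3 days and 2618 in PMA 8 days cells. The summed dendritic signal was 3405 in undifferentiated, 6601 in PMA 3 days and 6092 in PMA 8 days cells, with 3 of 10 under the floor on all arrays. Any link between the dendritic markers and the CLEC4A values in this cell line was not tested. The 9 natural killer, T and B cell markers summed to 2252, 1373 and 1563 units in that order, and 4 were under the floor on all arrays. NKG7, a granule protein of cytotoxic cells, was 2.29-fold lower at PMA 3 days. The 6 granulocyte markers summed to 37317, 1477 and 1779 units. Most of the first sum was ELANE, neutrophil elastase, with 32065 units in undifferentiated, 156 in PMA 3 days and 199 in PMA 8 days cells; without it the sums were 5252, 1321 and 1580. Of the 5 that entered, 3 were lower at either PMA time: ELANE, the chemokine receptor CXCR2 (8.99-fold and 5.22-fold) and the growth factor receptor CSF3R (2.71-fold and 3.33-fold). FCGR3B, an Fc receptor of neutrophils, went the other way, with 10.1 units in undifferentiated, 282 in PMA 3 days and 269.7 in PMA 8 days cells. The undifferentiated signal was under the floor, so FCGR3B was at least 1.88-fold and at least 1.8-fold higher, and neither bound reached 2-fold. CEACAM8 was under the floor on all arrays. Any link between the granulocyte markers and the CLEC12A values in this cell line was not tested.

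A further list held 22 transcription factors of myeloid cells, of which 20 were on the array. At PMA 3 days over undifferentiated 5 of 19 entering were higher and 4 lower (median 0.11), beside 10.4% and 10.7% of all genes. At PMA 8 days 4 of 20 were higher and 5 lower (0.12), beside 9.84% and 8.5% of all genes. MYB, GFI1 and IRF8, factors of progenitors and early myeloid cells, were 46.9-fold, at least 41.3-fold and 13.9-fold lower at PMA 3 days and 30.4-fold, 17.8-fold and 10.6-fold lower at PMA 8 days. Of the listed factors whose motifs were searched above, those of E-boxes were higher: BHLHE41, a repressor, at least 29.4-fold and at least 39.7-fold, and MITF 11.2-fold and 10.1-fold. The C/EBP factors were mixed. CEBPB was 2.75-fold higher at PMA 3 days and 2.42-fold at PMA 8 days, CEBPA was lower at both times as given above, CEBPD was 2.23-fold lower at PMA 8 days and within 2-fold at PMA 3 days, and CEBPE was within 2-fold at both. Of the AP-1 subunits, FOS was 2.15-fold higher at PMA 3 days and within 2-fold at PMA 8 days. JUN, JUNB and FOSL2 were within 2-fold at both times, and FOSL1 was above the floor at PMA 8 days only.

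Of the 10 genes 7 lie on chromosome 12 by the RefSeq table of GRCh38.p14, among the lectin genes of the natural killer gene complex and next to it. The others lie on chromosome 7 (CLEC5A), 17 (CLEC10A) and 19 (CLEC11A). The stretch from CLEC4A to CLEC7A with 3 genes on either side holds 35 protein-coding genes. Of these, 28 are not among the 10 genes, though some, such as KLRF1 and CLEC12B, were given above in other lists. Of the 28, 22 were on the array. Relative to undifferentiated cells, 16 of them entered at PMA 3 days, with 3 higher and 2 lower (median log2 ratio 0.29), and 14 entered at PMA 8 days, with 3 higher and 1 lower (0.13). Over all genes 10.4% were higher and 10.7% lower at PMA 3 days, and 9.84% and 8.5% at PMA 8 days. C3AR1, the receptor of a complement fragment, lies 2 genes from CLEC4A and was 23.1-fold higher at PMA 3 days and 16.4-fold at PMA 8 days. NECAP1, an endocytosis protein between them, had log2 ratios of 0.95 and 0.84. The largest ratios of the stretch were those of A2M, between CLEC4E and CLEC2D, 54.7-fold higher at PMA 3 days and 62.7-fold at PMA 8 days. GABARAPL1, past CLEC7A, was 2.87-fold and 2.93-fold higher. CLEC12B, an inhibitory receptor gene 2 places from CLEC12A, gave 333 units in undifferentiated cells, against 36.0 in PMA 3 days and 7.48 in PMA 8 days cells, at least 2.22-fold lower at either time. CLEC12A and CLEC12B were thus both under the floor in PMA cells, while CLEC7A, 5 places from CLEC12A, was higher at PMA 3 days.

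**Figure D3:**
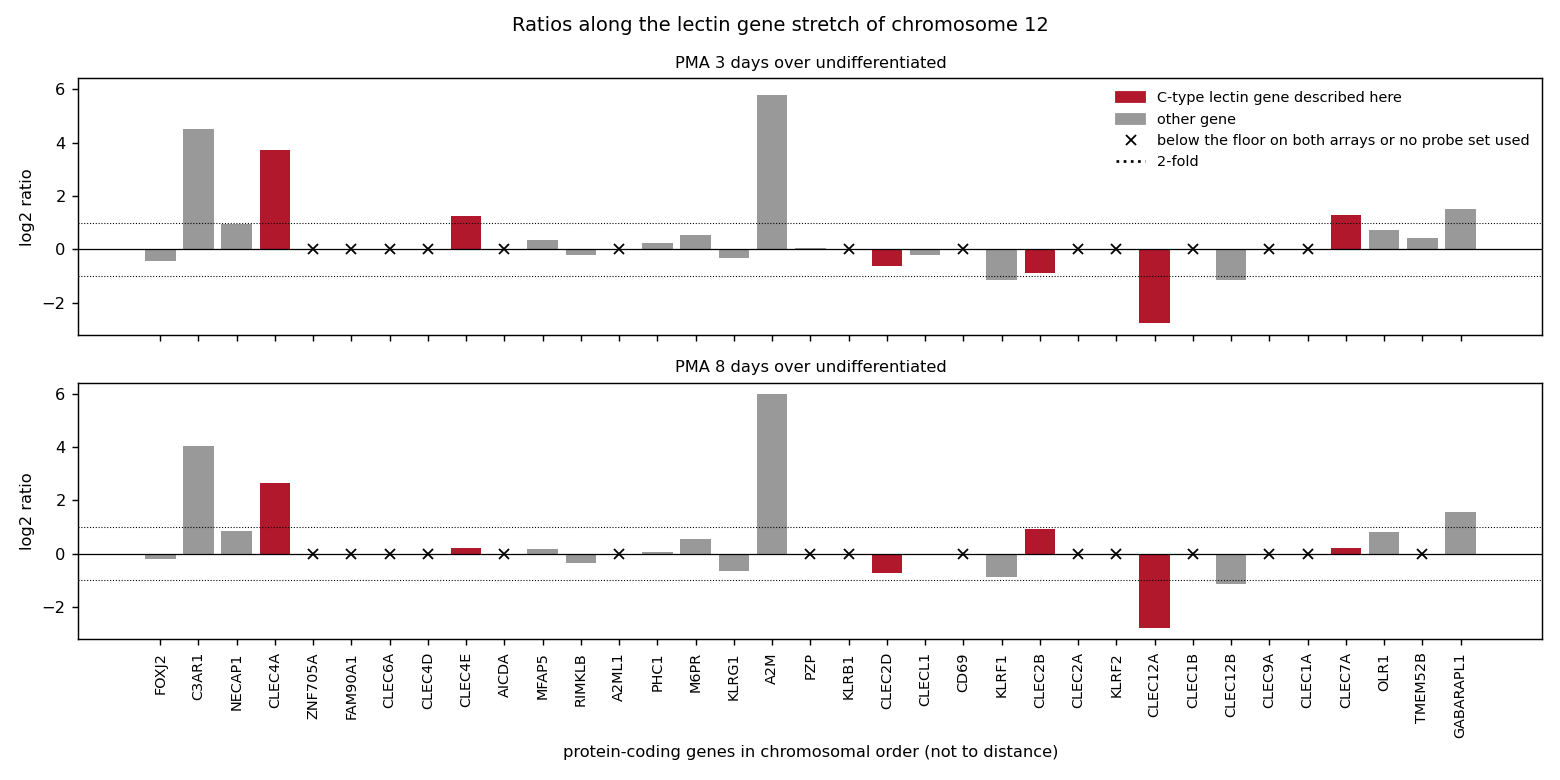
Log2 ratio over undifferentiated at PMA 3 days (top) and PMA 8 days (bottom) for 35 protein-coding genes of chromosome 12 in their order, evenly spaced; red bars are C-type lectin genes described here, grey bars other genes, crosses genes under the floor on both arrays or without a probe set used, and dotted lines 2-fold. Bars for genes with 1 array at the floor, CLEC12A, CLEC12B and CLEC4E among them, are bounds. CLEC12A and CLEC12B point down while CLEC4A, C3AR1, GABARAPL1 and A2M, the highest bar at both times, point up.

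The genes whose 3 floored log2 signals lay closest to those of CLEC4A, by Euclidean distance, were SLC26A11 (0.24), SLCO2B1 (0.26) and ACTG2 (0.34). SLCO2B1, an organic anion transporter, gave 272 units in undifferentiated, 3711 in PMA 3 days and 1945 in PMA 8 days cells. Only 5 genes lay within 0.5 of CLEC4A. Closest to CLEC12A were THBS4 (0.05), C16orf74 (0.11) and TCEAL2 (0.11), and 31 genes lay within 0.5 of it. With both PMA signals at the floor, likeness to CLEC12A rests on the undifferentiated signal alone, and all of these distances are over 3 arrays.

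**Figure D4:**
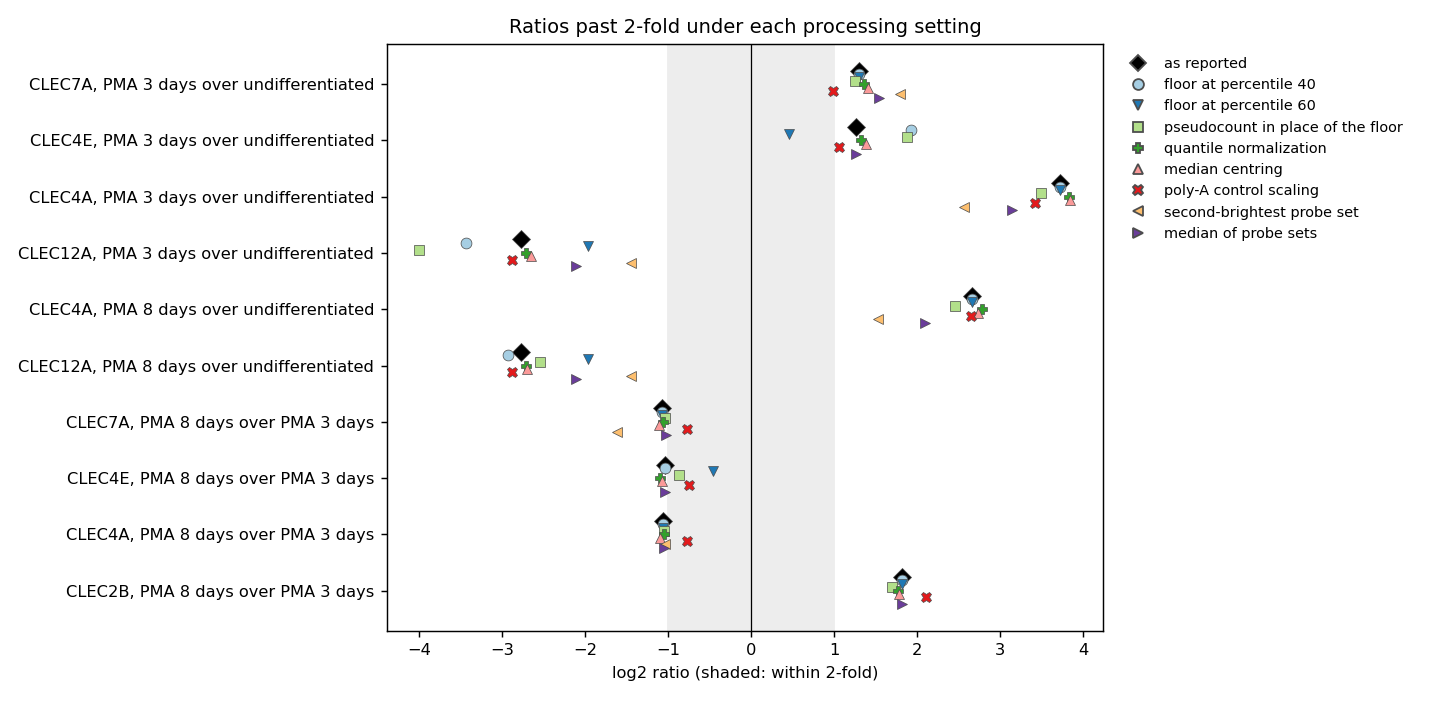
Log2 ratios of the genes called in each comparison under the reported setting (black diamonds) and the 8 alternatives, 1 array per condition; the shaded band is within 2-fold. CLEC4A over undifferentiated, CLEC12A and CLEC2B stay outside the band on every alternative that gives a value, poly-A control scaling brings all 3 lower calls at PMA 8 days over PMA 3 days inside it, and a higher floor brings CLEC4E inside it.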

How the data were processed

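Total RNA of 3 THP-1 cultures, 200 ng each, was labelled with biotin and hybridised to 1 array each, per the labels' protocols. Intensity values as deposited are linear signals made with MAS5, per the submitters' processing notes; its version and settings are not given in the sources used here. In all, the table holds 54675 probe sets, 62 of them controls. The platform table names 1 gene for 41091, several genes for 1801 and no gene for 11721. Probe sets with 1 gene gave 19775 genes, each represented by its probe set of highest mean signal. All 10 members matched the RefSeq table of GRCh38.p14 by Entrez ID. Promoter sequences are RefSeq's, cut to the 250 bases before the start. The members and lists were chosen with earlier results of these data known. Named genes are all members, all partners, and up to 4 genes per list and comparison with the largest ratio past 2-fold, plus the 3 genes most like the members of largest rise and fall. Other genes fall outside this rule and were named after their values were seen. They are SPI1, MITF and the C/EBP and AP-1 factors (named for a motif), FCGR3B and CEACAM8 (named to complete their list), LYZ (the brightest of its list), NECAP1, C3AR1, A2M and GABARAPL1 (named for their place) and THBD. For scaling to poly-A controls, 24 of 27 control probe sets above the floor were used. Alternatives were 2 other floors, log2(signal + 50), 3 scalings and 2 choices of probe set. The number of arrays limits the precision, and no p-values were computed. The steps were tested on simulated data. Python 3.11.15, numpy 2.4.6, pandas 2.3.3 and matplotlib 3.10.9 were used.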

Additional observations from a re-analysis of the deposited data

Results flagged for a closer look

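CLEC2B stood at a log2 ratio of -0.88 to undifferentiated cells at PMA 3 days and 0.94 at PMA 8 days, a difference of 1.82. It is given because its direction relative to undifferentiated cells was opposite at the 2 PMA times, each time by more than the SD of 0.30 between probe sets of a gene and the SD of 0.41 and 0.44 for dim genes. With 1 culture at each time the difference was not tested.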

How the results depend on the processing

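Of 183 recomputed ratios of single genes, 142 moved by less than the SD between probe sets, 41 by more, and 0 of the called ones changed direction; the causes were not tested except as stated. Of 48 recomputed counts, 39 were within 1.5 times the reported one. Scaling to the poly-A controls gave 3 genes lower at PMA 3 days over undifferentiated (CLEC12A, CLEC2B and CLEC11A) in place of 1. It gave 0 lower at PMA 8 days over PMA 3 days in place of 3. By construction this scaling raised or lowered all signals of an array alike. Ratios with an array at the floor, such as those of CLEC4E and CLEC12A, moved by other amounts. For PMA 8 days over undifferentiated cells 2 genes were higher in place of 1 with the pseudocount (CLEC4E added), quantile normalization and median centring (CLEC2B added in both), and 2 were lower in place of 1 with the second-brightest and the median of probe sets (CLEC11A added). At PMA 8 days over PMA 3 days the pseudocount gave 2 higher (CLEC12A added, though under the floor on both arrays) and the second-brightest probe sets 0, since that of CLEC2B is under the floor. CLEC4E lay between 0.46 and 1.93 at PMA 3 days over undifferentiated, and CLEC12A between -3.99 and -1.45. Over all genes, poly-A control scaling gave 2487 lower in place of 1426 at PMA 3 days over undifferentiated. In PMA 8 days over PMA 3 days it gave 524 higher and 43 lower in place of 179 and 125. For that comparison a 40th percentile floor gave 375 and 191, a 60th percentile floor 97 higher, and the pseudocount 793 and 381. Of the 10 genes, CLEC4E, CLEC10A, CLEC4D and CLEC12A have a brightest probe set under the floor on at least 1 array, so that ratios with that array are bounds or are not given.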
